A study of Homo sapiens with 4 samples.

Results

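SRRM2, DDX5 and DDX17 are 3 genes for RNA-processing proteins, described here among the 9667 genes of tables that record where RNA crosslinked to the protein CFAP20 maps. They were selected because earlier readings of the same tables showed high signal over them in the libraries with tagged CFAP20. Their levels and the difference between the groups are therefore given as a description, with no test. DDX17 is the only 1 of the 3 with a row of its own. The stretches of SRRM2 and DDX5 were read through the 200-kb windows of neighbouring genes, each position at most once, from the nearest gene start.

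The libraries come from FLASH, an assay in which living cells are irradiated with ultraviolet light to bind proteins to the RNA they touch, a biotinylated protein is captured on streptavidin beads, and the RNA left on the beads after RNase I is sequenced. The cells were RPE1, an established human line derived from retinal pigment epithelium. All 4 libraries came from the RPE1 iCas9 p53/puro-dKO CFAP20-KO background, so loss of p53, of the puro gene and of endogenous CFAP20 is common to them all. The 2 CFAP20-KO libraries are the negative control of the capture, and the 2 tagged-CFAP20 libraries came from those cells expressing FLASH-BIO-CFAP20. CFAP20 is known as a protein of cilia, and the comparison addresses whether it binds RNA. The labels do not say whether the replicates were separate cultures or whether a line is 1 clone, so the spread between replicates may be technical.

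SRRM2 is a very large serine- and arginine-rich protein that helps to hold nuclear speckles together, the bodies in the nucleus where splicing factors gather. DDX5 and DDX17 are closely related DEAD-box RNA helicases. They unwind or remodel RNA during splicing, transcription and microRNA processing, and they can stand in for each other in many of these roles. Genes for splicing proteins often carry introns that are kept in part of their transcripts.

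The sequences shown first are those of introns on which much of the tagged signal lay. Each 5′ splice site is given with 10 exon and 10 intron bases, and each 3′ splice site with 20 intron and 10 exon bases. Capitals mark the first 2 and the last 2 bases of the intron (hg38, transcribed strand, exon numbers of the GENCODE canonical transcripts). Intron 9 of SRRM2 is 0.639 kb long, intron 12 of SRRM2 1.07 kb, intron 11 of DDX5 1.24 kb and intron 11 of DDX17 3.94 kb.
SRRM2 intron 9 5′ splice site, chr16:2759652-2759671 (+): cccgcagtcgGTaaggggta
SRRM2 intron 9 3′ splice site, chr16:2760281-2760310 (+): tcctcaattaactcctgcAGgtctcgaagt
SRRM2 intron 12 5′ splice site, chr16:2769275-2769294 (+): gcgagcggagGTgagtgctg
SRRM2 intron 12 3′ splice site, chr16:2770332-2770361 (+): ggtcctactgtgttccccAGgtcccgcagc
DDX5 intron 11 5′ splice site, chr17:64502000-64502019 (-): agagggctagGTtagtacaa
DDX5 intron 11 3′ splice site, chr17:64500764-64500793 (-): cacactgcaacaccttacAGatgtggaaga
DDX17 intron 11 5′ splice site, chr22:38492046-38492065 (-): cgtgggctagGTttgtatag
DDX17 intron 11 3′ splice site, chr22:38488106-38488135 (-): actcatcattgacgtggaAGatgtggaaga
All 14 canonical introns of SRRM2, all 12 of DDX5 and all 12 of DDX17 begin with GT and end with AG. In both helicase genes the exon after intron 11 opens with the same 10 bases.

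The relation of the helicase genes shows in the exon before that intron, which is 60 bases long in each. Capitals mark the bases that differ in the last 30 bases of exon 11.
DDX5 exon 11, chr17:64502010-64502039 (-): ttgctacagatgtGgcctccAgAgggctag
DDX17 exon 11, chr22:38492056-38492085 (-): ttgctacagatgtAgcctccCgTgggctag
Over the whole exon 46 of 60 bases (76.7%) were identical. Of the 13 exons of each canonical transcript, 8 had the same length in both genes, namely exons 4 to 11. The introns between them differ in length, and intron 11 is the longest intron of DDX5.

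Intron 11 of DDX5 also holds 2 microRNA genes, MIR3064 and MIR5047, on the same strand. Their mature sequences are printed from RefSeq (GRCh38.p14), with the seed, bases 2 to 8, in capitals.
hsa-miR-3064-5p, chr17:64500817-64500837 (-): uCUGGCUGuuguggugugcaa
hsa-miR-3064-3p, chr17:64500775-64500797 (-): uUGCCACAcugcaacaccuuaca
hsa-miR-5047, chr17:64501230-64501250 (-): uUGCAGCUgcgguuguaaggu
The 3 seeds differ from each other. The 3p arm of miR-3064 stops 1 base short of the end of the intron and so overlaps the 3′ splice site printed above. The 200-base bin over MIR3064 held 61 and 38 read overlaps in tagged-CFAP20 replicates 1 and 2 and 1 and 0 in CFAP20-KO replicates 1 and 2. The bin over miR-5047 held 38 and 29 against 1 and 0. A bin this wide does not separate a microRNA from the intron around it.

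The deposited value of a bin is a normalized signal, and in each library it came in whole steps, so that dividing by the step gives the number of read overlaps, 1 for each read that touches the bin. A step is worth 83 signal units in CFAP20-KO replicate 1 and 276.88 in CFAP20-KO replicate 2 and 12.9 and 13.9 in those with tagged CFAP20. A read touched 1.37 bins on average, so overlaps exceed reads. The 2 control libraries held 9146 and 3908 overlaps within all genes, and the tagged libraries 165189 and 134891. Low control values therefore rest on very few overlaps.

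SRRM2 (chr16:2752626-2772538, plus strand, 19.9 kb, 99 bins) had more signal in both tagged-CFAP20 libraries than in both controls. Its signal was 4233 and 8030 in CFAP20-KO replicates 1 and 2, from 51 and 29 overlaps. It was 25334 and 23352 in tagged-CFAP20 replicates 1 and 2, from 1971 and 1676 overlaps. The groups did not overlap, but SRRM2 was selected for high tagged signal. The share of other genes whose groups separate likewise was not counted. The control replicates differed from each other by more than the tagged ones. The means were 6131 ± 2685 and 24343 ± 1401 signal units (SD, n = 2 each), a ratio of 3.97. In the tagged libraries SRRM2 stood above every gene of the tables, ahead of FLNA, the actin crosslinker filamin A, at 15686. It stood nearly as high in the controls, where it ranked 1 in replicate 1 and 2 in replicate 2. Per kilobase its tagged signal of 1222 ± 70.4 (SD, n = 2) was exceeded by 1 gene of the tables.

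DDX5 (chr17:64498254-64508199, minus strand, 9.9 kb, 49 bins) followed the same order. Its signal was 2158 and 2769 in CFAP20-KO replicates 1 and 2, from 26 and 10 overlaps, and 10206 and 7580 in tagged-CFAP20 replicates 1 and 2. In the tagged libraries that is 16.2 and 11.1 overlaps per bin, against 0.531 and 0.204 in the controls. The groups again did not overlap, under the same selection. The means were 2463 ± 432 and 8893 ± 1857 (SD, n = 2 each), a ratio of 3.61. Set among the genes of the tables, DDX5 ranked 4 by tagged signal and 4 by tagged signal per kilobase, which was 894.1 ± 187, and 21 by control signal.

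DDX17 (chr22:38485878-38506313, minus strand, 20.4 kb, 103 bins) had the lowest level and the smallest ratio of the 3 genes. Its signal was 2324 and 1938 in CFAP20-KO replicates 1 and 2, from 28 and 7 overlaps. It was 5128 and 4626 in tagged-CFAP20 replicates 1 and 2, from 399 and 332. The groups did not overlap, under the same selection. The means were 2131 ± 273 and 4877 ± 355 (SD, n = 2 each), a ratio of 2.29, which was 1.84 when read through the window of KDELR3. It ranked 20 by tagged signal, 19 per kilobase, at 239 ± 17.4, and 32 by control signal.

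The order SRRM2, DDX5, DDX17 held in both tagged libraries and per kilobase. In the controls SRRM2 was again above the other 2, while DDX5 and DDX17 changed places between replicates, with 2158 and 2324 in replicate 1 and 2769 and 1938 in replicate 2. In this bulk material a different number of cells and a different amount of RNA recovered per cell cannot be told apart.

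The signal summed over all genes was itself 2.17 times higher in the tagged libraries, 2.00e+06 ± 172356 against 920583 ± 228345 (SD, n = 2 each), so each gene was also set against that sum. The sum runs over the genes that have a row, DDX17 among them, while SRRM2 and DDX5 are not part of it and their values are ratios to it, in percent. SRRM2 came to 0.558% and 0.742% of the summed gene signal in CFAP20-KO replicates 1 and 2 (95% exact Clopper-Pearson intervals 0.392 to 0.766% and 0.458 to 1.13%). It came to 1.19% and 1.24% in tagged-CFAP20 replicates 1 and 2 (1.13 to 1.26% and 1.17 to 1.31%). These percentages did not overlap between groups, under the same selection and with no count over other genes. Their means had a ratio of 1.87.

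For DDX5 they were 0.284% and 0.256% in the controls and 0.481% and 0.403% in the tagged libraries, a ratio of 1.64. The 4 values did not overlap between groups, under the same selection, although the control interval of replicate 2, 0.0990 to 0.507%, covered both tagged values. The control interval of replicate 1, 0.172 to 0.446%, covered the value of tagged replicate 2 and overlapped both tagged intervals. For DDX17 they were 0.306% and 0.179% in the controls and 0.242% and 0.246% in the tagged libraries, a ratio of 1.00. Here the tagged values lay between the control values. DDX17 thus stood above its control in signal and not relative to the sum. SRRM2 and DDX5 stood above theirs in both, for DDX5 with overlapping intervals relative to the sum. The intervals cover counting error only.

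**Figure D1:**
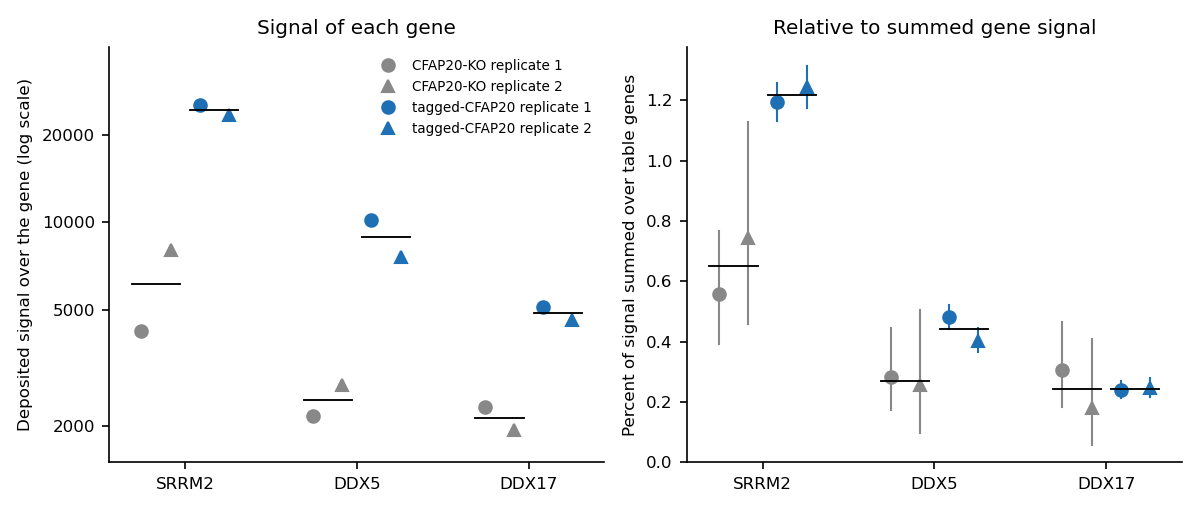
Signal over SRRM2, DDX5 and DDX17 in each library (left, log scale, deposited units) and the same signal relative to that summed over the genes of the tables (right, percent, vertical lines are 95% exact binomial intervals); grey marks CFAP20-KO, blue tagged-CFAP20, circles replicate 1, triangles replicate 2, and black bars the mean of 2. SRRM2 goes from 0.558% and 0.742% to 1.19% and 1.24% of that sum, whereas the tagged values of DDX17, 0.242% and 0.246%, lie between its control values.

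The tagged signal was not spread evenly along any of the 3 genes. Over the bins of a gene, tagged replicates 1 and 2 ran together with a Pearson r of 0.929 for SRRM2 (99 bins), 0.978 for DDX5 (49 bins) and 0.893 for DDX17 (103 bins), as a description across bins that share libraries. Of the 99 bins of SRRM2, 90 and 87 held at least 1 overlap in the tagged libraries and 31 and 26 in the controls. The 5 bins with most tagged signal, 5.05% of its bins, held 29.2% and 28.6% of its tagged overlaps. In DDX5 the 5 highest bins, 10.2% of its bins, held 43.1% and 42.6%. In DDX17 they are 4.85% of the bins and held 29.8% and 24.4%.

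SRRM2 had 2 zones of high tagged signal on either side of its largest exon. The first lay over intron 9 and its surroundings, about 7 to 8 kb from the transcript start. In the 2 bins wholly inside intron 9 (chr16:2759662-2760300) the tagged replicates held 233 and 123 overlaps and the control replicates 4 and 0. The second zone ran over introns 11 and 12. Intron 11 (chr16:2768262-2768996) held 82 and 53 tagged overlaps in 2 bins and 1 and 1 in the controls, and intron 12 (chr16:2769285-2770351) held 278 and 299 in 4 bins against 2 and 0. By contrast the 3487-base intron 1, the longest of the gene, held 20 and 16 tagged overlaps in 17 bins and none in either control, and intron 10 held 11 and 8 in 4 bins.

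Between the zones lies exon 11 of SRRM2 (chr16:2761561-2768261), a single exon of 6701 bases that codes for most of the serine- and arginine-rich protein. Its 33 bins held 428 and 454 tagged overlaps and 27 and 12 control overlaps. Divided after its profile had been seen, the first kilobase of the exon held 20.4 and 20 tagged overlaps per bin, the last kilobase 30 and 32.6, and the 23 bins between them 7.65 and 8.30. In the last kilobase 1 of the 5 bins, the one next to intron 11, held 116 of the 150 and 116 of the 163 overlaps. The controls held 0.8 and 0.4 per bin in the first kilobase, 1.6 and 0.4 in the last and 0.652 and 0.348 between.

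The make-up of the SRRM2 signal differed between groups. Introns 9, 11 and 12 together, by the bins whose middle they hold, are 13.1% of the bins. They held 45.0% and 41.2% of the SRRM2 overlaps in tagged-CFAP20 replicates 1 and 2 (95% exact intervals 42.4 to 47.6% and 38.5 to 44.1%). They held 19.6% and 10.3% in the controls (7.96 to 35.2% and 1.17 to 30.4%). Exon 11, with 33.3% of the bins, went the other way, with 21.7% and 27.1% in the tagged libraries and 52.9% and 41.4% in the controls. For the introns no control interval reached a tagged one. For the exon the interval of control replicate 2, 21.8 to 66.0%, overlapped both tagged intervals. These stretches were chosen after their values were seen, so no test was made.

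The highest bin of SRRM2 covered exon 12 (chr16:2769049-2769248), with 127 and 138 overlaps in the tagged libraries and 8 and 0 in the controls, or 7.30% of the mean tagged signal of the gene. The next held the end of exon 11, with 116 and 116 against 5 and 1. It is printed as the highest bin free of every annotated untranslated region, and capitals mark its longest run of TCN triplets, 45 bases.
SRRM2 exon 11, chr16:2768049-2768248 (+): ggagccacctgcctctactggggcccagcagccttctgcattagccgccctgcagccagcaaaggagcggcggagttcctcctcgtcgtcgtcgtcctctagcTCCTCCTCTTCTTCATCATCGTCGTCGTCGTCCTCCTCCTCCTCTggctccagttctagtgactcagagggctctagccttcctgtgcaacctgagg
A run of at least 10 TCN triplets on either strand was found in 2 of the 99 bins of SRRM2 (2.02%) and in none of those of DDX5 or DDX17. The highest intronic bin free of untranslated regions lay wholly in intron 9 and held 130 and 56 overlaps in the tagged libraries and 3 and 0 in the controls. No base is in capitals, since none belongs to a canonical exon.
SRRM2 intron 9, chr16:2760049-2760248 (+): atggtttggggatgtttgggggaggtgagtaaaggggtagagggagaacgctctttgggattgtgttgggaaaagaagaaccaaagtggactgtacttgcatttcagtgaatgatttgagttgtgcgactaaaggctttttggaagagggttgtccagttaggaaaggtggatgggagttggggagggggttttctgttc
The other 2 of the 5 highest bins lay in intron 12, with 100 and 103 tagged overlaps, and again in intron 9, with 103 and 67.

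DDX5 had most of its tagged signal late in the gene, from exon 9 through the start of exon 13. The 4 bins inside intron 11 (chr17:64500774-64502009) held 175 and 121 tagged overlaps and 2 and 1 control overlaps. A short part of this intron was not read, where the windows of POLG2 and CEP95 meet. It lies between the bin that ends at 64501736 and the bin that starts at 64501888. The 5 bins inside intron 1, which is 1233 bases long against 1236 for intron 11, held 12 and 11 in the tagged libraries and 2 and 0 in the controls. Introns of nearly equal length in the same gene thus differed in tagged overlaps per bin, at 43.8 and 30.2 for intron 11 and 2.40 and 2.20 for intron 1. Counted by bin middle, intron 11 held 34.4% and 34.6% of the DDX5 overlaps in the tagged libraries (95% exact intervals 30.6 to 38.5% and 29.9 to 39.5%), in 12.2% of the bins. The controls held 15.4% and 10.0%, from 4 and 1 overlaps, and their intervals, 3.38 to 39.6% and 0.361 to 57.9%, covered the tagged values.

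The 5 highest bins of DDX5 lay at exon 12 (79 and 67 tagged overlaps), at the boundary of exon 9 and intron 9 (77 and 46), at the start of exon 13 (64 and 43) and, with 61 and 38 each, over MIR3064 and in the middle of intron 11. None held more than 3 overlaps in a control. Only 4 of its 49 bins touch no annotated untranslated region of any transcript. The highest of these, rank 11, lay wholly in intron 12 and is shown as intronic sequence with 30 and 19 tagged overlaps and 1 and 0 in the controls.
DDX5 intron 12, chr17:64500337-64500536 (-): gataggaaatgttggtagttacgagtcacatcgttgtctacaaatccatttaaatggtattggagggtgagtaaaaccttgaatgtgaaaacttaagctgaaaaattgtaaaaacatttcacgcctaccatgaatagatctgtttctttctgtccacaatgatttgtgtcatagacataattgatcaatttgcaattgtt

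DDX17 also had much of its tagged signal on intron 11 (chr22:38488116-38492055). Its 19 bins held 137 and 140 tagged overlaps, while intron 1, which is longer at 4670 bases, held 23 and 21 in 22 bins and intron 5 held 0 and 1 in 10 bins. The controls lay there as well, with 17 and 3 overlaps in intron 11. In CFAP20-KO replicate 1 that was 17.6 times as many per bin as in its other introns, and the intron chosen in SRRM2, with 4 of 8 intronic overlaps there, stood 16.5 times above its others. Intron 11 took 60.7% and 42.9% of the DDX17 overlaps in the controls and 34.3% and 42.2% in the tagged libraries, and the intervals overlapped (36.1 to 80.9% and 5.27 to 85.3% against 29.02 to 40.3% and 35.9 to 48.6%). In signal units, which set the libraries on the authors' scale, the mean per bin inside the intron was 74.3 and 43.7 in the controls and 92.7 and 103 in the tagged libraries.

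The highest bin of DDX17 held the start of exon 12, with 49 and 29 tagged overlaps and 2 and 1 in the controls. The bin after it, with 23 and 17 against 2 and 0, is the highest that touches no untranslated region. Its 134 bases in exon 12 are in capitals, and the 5′ splice site of intron 12 follows.
DDX17 exon 12, chr22:38487813-38488012 (-): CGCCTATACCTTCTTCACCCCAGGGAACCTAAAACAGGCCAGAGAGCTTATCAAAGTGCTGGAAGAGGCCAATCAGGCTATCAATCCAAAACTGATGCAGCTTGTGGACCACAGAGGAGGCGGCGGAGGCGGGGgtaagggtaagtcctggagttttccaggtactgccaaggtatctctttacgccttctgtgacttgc
The remaining 3 of its 5 highest bins lay in intron 11, with 14 and 15 and with 17 and 10 tagged overlaps, and at exon 9, with 16 and 10.

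**Figure D2:**
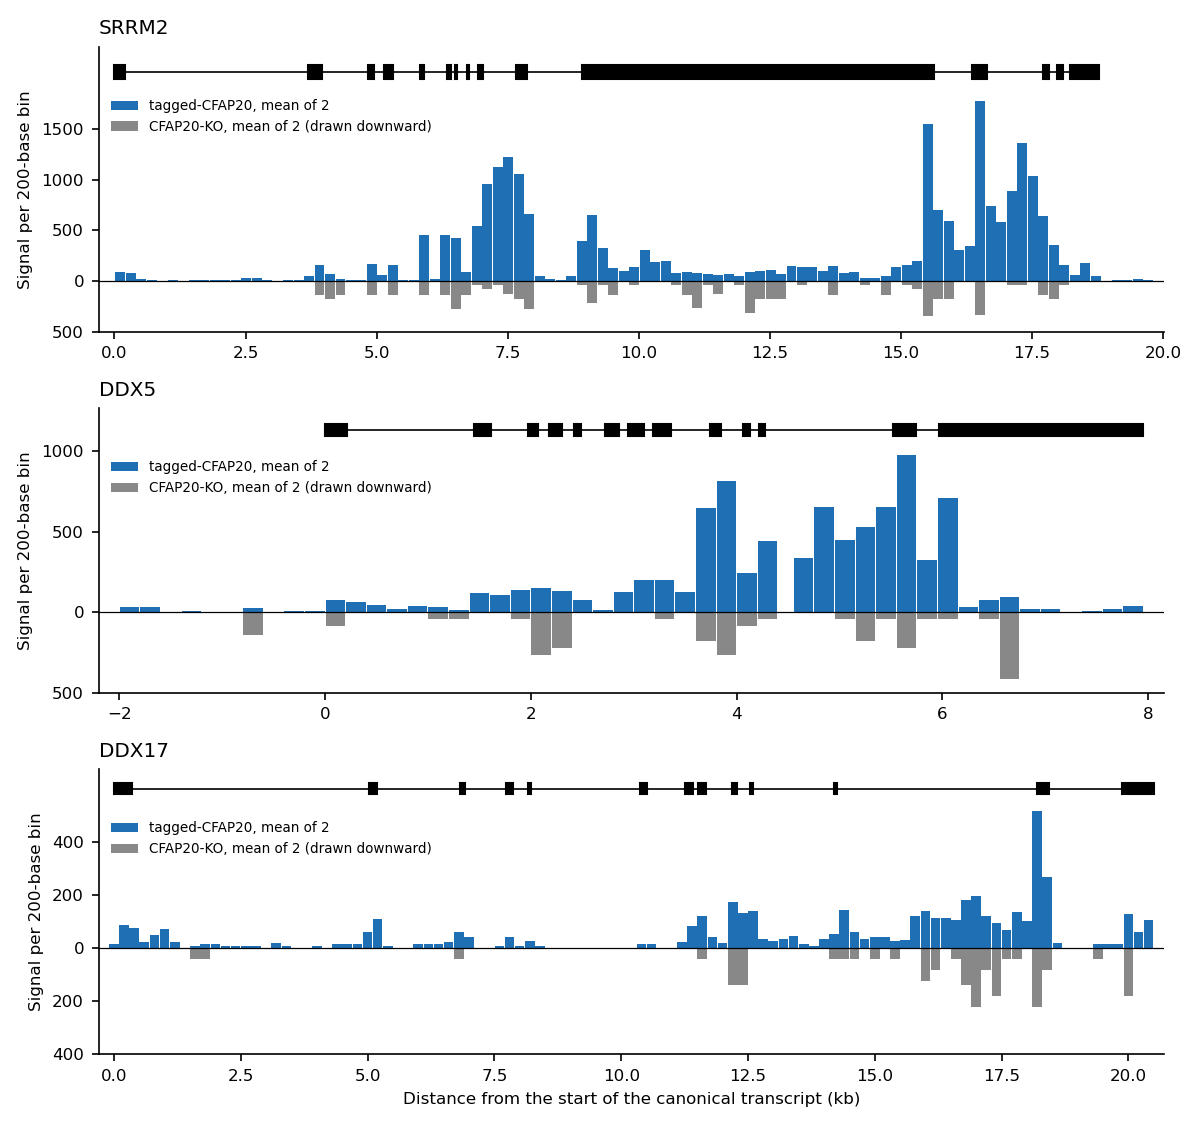
Mean signal per 200-base bin along SRRM2, DDX5 and DDX17, against distance from the start of the canonical transcript (kb); blue bars upward are tagged-CFAP20, grey bars downward are CFAP20-KO (mean of 2 each), and black boxes mark exons. In SRRM2 the tagged signal stands on both sides of the large exon 11, and in DDX5 and DDX17 it stands around intron 11 and exon 12.

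Over the stretches read, the 2 helicase genes were alike in the share of their tagged overlaps from exon 9 on. From the start of exon 9 to the end of the stretch read, 40.8% of the bins in each gene, DDX5 held 73.0% and 71.7% of its tagged overlaps and DDX17 76.4% and 74.4%. The intervals of the 2 genes overlapped in each tagged library (69.2 to 76.6% against 71.2 to 81.3% in replicate 1, and 67.0 to 76.1% against 68.4 to 79.8% in replicate 2). The controls held 53.8% and 60.0% in DDX5 and 85.7% and 100% in DDX17, from 28 overlaps or fewer in a gene and library. The boundary was placed after the profiles were seen. The stretches also differ: that of DDX17 leaves out 12 bins of its 3′ untranslated region, which held 55 and 45 tagged overlaps. That of DDX5 runs to its GENCODE end and includes bins upstream of its canonical start. The likeness of the shares therefore holds for these stretches only.

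An intron was also chosen in tagged replicate 1 alone, as the one with most overlaps per bin among introns with at least 2 bins inside, and then read in tagged replicate 2, which had no part in the choice. For SRRM2 this was intron 9, which held 61.5 overlaps per bin in replicate 2, 5.29 times the mean of the other 6 introns compared. In that replicate intron 12 was higher still, so the order of these introns differed between replicates. For DDX17 it was intron 11, with 7.37 overlaps per bin, 9.66 times the other 8 introns. For DDX5 only introns 1 and 11 are long enough, and intron 11 held 13.8 times as many per bin.

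The same procedure over the 296 genes of the tables with at least 3 such introns and 50 overlaps in them gave a median of 3.44 times, with an interquartile range of 1.67 to 5.94. SRRM2 lay at or above 70.9% of those genes and DDX17 at or above 90.5%. DDX5, with only 2 introns to compare, is not set against them. A concentration on 1 intron was thus common in these tables, and that of SRRM2 lay within their interquartile range.

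**Figure D3:**
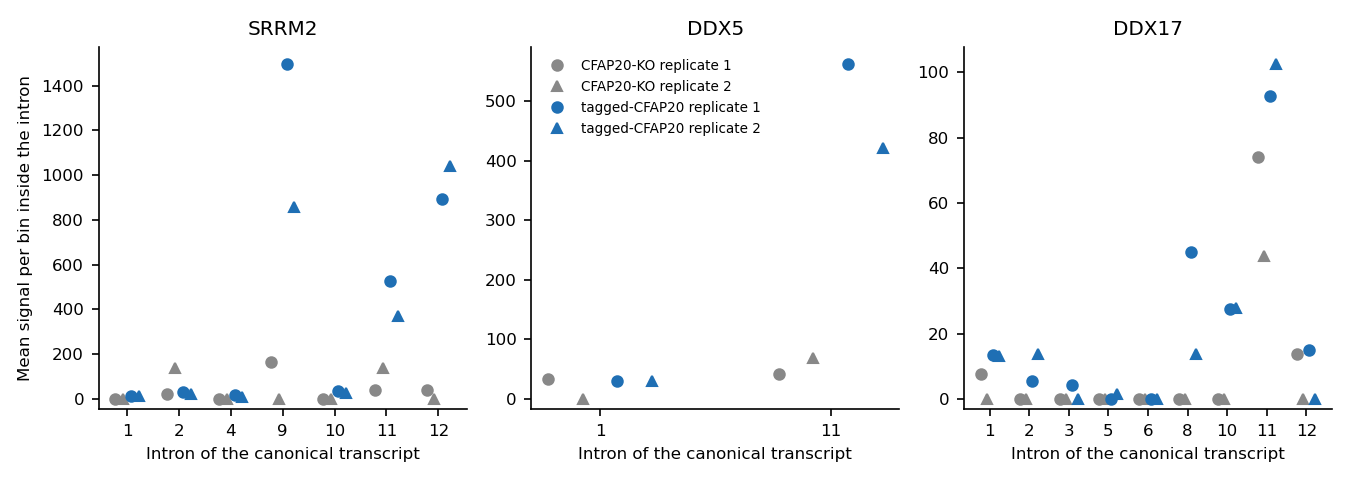
Mean signal per bin (deposited units) inside each canonical intron with at least 2 bins wholly inside, for SRRM2, DDX5 and DDX17; grey marks CFAP20-KO, blue tagged-CFAP20, circles replicate 1, triangles replicate 2. Introns 9, 11 and 12 of SRRM2, 11 of DDX5 and 11 of DDX17 stand above the early introns. In intron 11 of DDX17 the controls, at 74.3 and 43.7 in replicates 1 and 2, lie below the tagged libraries, at 92.7 and 103.

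Introns 9, 11 and 12 of SRRM2 and intron 11 of DDX5 and of DDX17 are exonic, wholly or partly, in some annotated transcripts. An exon runs across the whole of intron 11 in 8 of the 41 DDX5 transcripts of GENCODE 44, all 8 of the retained-intron type. It does so for intron 11 in 1 of the 10 DDX17 transcripts and for intron 9 in 2 of the 26 SRRM2 transcripts. No transcript holds the whole of SRRM2 intron 11 or 12. The GC content was 48.8% for intron 9, 57.1% for intron 11 and 61.7% for intron 12 of SRRM2 (median of its introns 49.0%). It was 42.3% for intron 11 of DDX5 (median 34.0%) and 40.5% for intron 11 of DDX17 (median 41.4%).

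The share of overlaps in exonic bins was compared between the groups as the measure of position that does not depend on level, counting a bin as exonic with at least 100 bases in an exon of any transcript. For SRRM2 it was 90.2% and 79.3% in the 2 controls and 87.6% and 89.9% with tagged CFAP20, where 64.6% of its bins are exonic. The difference of 4.02 percentage points was within the spread of the controls (exact two-sided permutation p = 1, adjusted p = 1 over 3 tests). For DDX5 all control overlaps and 98.7% and 99.1% of tagged ones were exonic, where 93.9% of its bins are exonic. That share was near its ceiling, so the comparison could show little for DDX5. For DDX17 the shares were 85.7% and 85.7% in the controls and 78.2% and 81.3% in the tagged libraries, where 37.9% of its bins are exonic. In DDX5 and DDX17 the groups did not overlap, and the exact two-sided permutation p was 0.333 in each (adjusted p = 0.5), the smallest that 2 libraries against 2 can give.

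The direction depended on which exons were counted. With exons of the canonical transcript alone, the SRRM2 shares were 70.6% and 51.7% in the controls and 35.8% and 42.4% in the tagged libraries, a difference of -22.0 percentage points. For DDX17 they were 21.4% and 42.9% against 33.8% and 31.3%, and for DDX5 34.6% and 50% against 31.5% and 32.7%. Among 372 genes of the tables with at least 100 overlaps in tagged replicate 1, the median tagged share was 34.3% over the exons of any transcript and 23.0% over canonical exons. The tagged means of the 3 genes on the canonical count, 39.1% for SRRM2, 32.1% for DDX5 and 32.6% for DDX17, were above that median, at or above 83.1%, 72.3% and 73.7% of the genes. Canonical exons make up 42.4% of the bins of SRRM2, 34.7% of those of DDX5 and 10.7% of those of DDX17, so the tagged share was below the share of bins in SRRM2 and DDX5 and above it in DDX17.

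**Figure D4:**
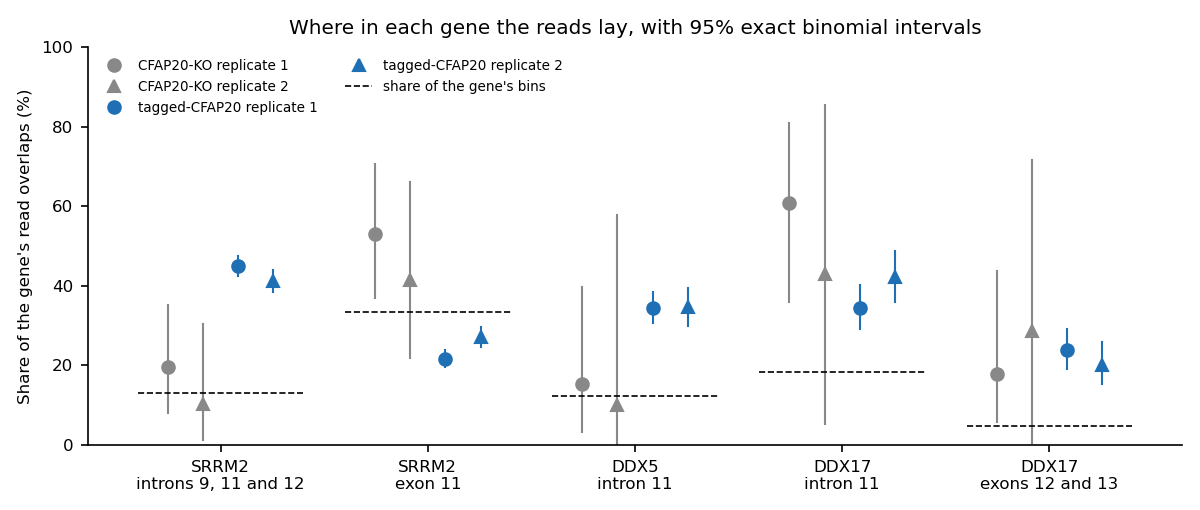
Share of each gene's read overlaps (percent) in the named stretches of its canonical transcript, by library, with 95% exact binomial intervals; dashed lines give the share of the gene's bins in that stretch. Introns 9, 11 and 12 of SRRM2 took 45.0% and 41.2% in the tagged libraries against 19.6% and 10.3% in the controls, while for DDX17 intron 11 the control values, 60.7% and 42.9%, lie above the tagged ones with overlapping intervals.

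The genes whose signal over the 4 libraries was most like that of each member were found by the Euclidean distance of log2(signal + 276.88). For SRRM2 the nearest was FLNA at 0.905, and the next were farther, SETD5, a chromatin regulator, at 2.46 and HNRNPH1, a splicing regulator, at 2.72. For DDX5 they were RBM39, a splicing factor, at 0.466, SLC4A7, a bicarbonate transporter, at 0.515 and SETD5 at 0.620. For DDX17 they were HEG1 at 0.430, PHLDB2 at 0.469 and NAP1L1, a histone chaperone, at 0.475. The distance follows level as well as the difference between groups.

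The other genes of the same pathways were read from 3 lists and a limma fit over the 4461 genes with signal in at least 2 libraries. At an adjusted p under 0.05 (limma, Benjamini-Hochberg over those genes), 6 of the 16 tested genes of the nuclear speckle and SR protein list were higher with tagged CFAP20 and none was lower, against 23.4% higher and 0.0224% lower over all genes tested. The list has 63 genes, of which 17 have a row. U2AF1, a splice-site recognition factor, is listed at 0 in every library. The median log2 difference was 1.54 in the list and 0.37 over all genes tested. With a pseudocount of 10 it was 1.92 in the list, below the 2.10 over all genes tested. The higher median of the list thus depended on the pseudocount.

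RBM39 had the most tagged signal of the list, 10450 and 8458 in the tagged libraries against 1660 and 2215 in the controls (log2 difference 2.14, limma adjusted p = 0.0374). The other 5 called were SCAF11, TRA2A, TRA2B, SRSF6 and SRSF7, with log2 differences of 1.51 to 2.57. TRA2A and TRA2B are splicing activators, and SRSF6 and SRSF7 are SR proteins that bind exonic enhancers. SRRM1, a partner of SRRM2 in speckles and splicing, had 4280 and 3525 against 332 and 1108 and did not pass (log2 difference 2.18, limma adjusted p = 0.0526). SRSF5, another SR protein, had a mean of 3392 ± 147 against 982.7 ± 568.1 (SD, n = 2 each; log2 difference 1.62, limma adjusted p = 0.0622).

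Of the 18 rows whose symbol starts with DDX or DHX, 15 were tested and 4 were higher, none lower, a share near the 23.4% of all genes tested. DDX17 is 1 of the 4 and was selected on these values, so its call says nothing more. The other 3 were DDX46, a helicase of the early spliceosome (mean 2688 against 650.4), DHX36, which unwinds G-quadruplexes (1649 against 262.9), and DHX16, a helicase of the active spliceosome (481.1 against 41.5). The median log2 difference of the 15 was 1.10. With a pseudocount of 10 it was 2.03, against 2.10 over all genes tested. DDX5 has no row and is not in this count.

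Of 19 named partners of DDX5 and DDX17, 5 have a row, and 1 of the 5 was higher, against 23.4% of all genes tested. This was HNRNPH1, with 11799 and 9168 in the tagged libraries against 1162 and 3046 in the controls (log2 difference 2.29, limma adjusted p = 0.0487). DHX9 (1954 and 1031 against 415.0 and 276.9) and ADAR, an RNA-editing enzyme (mean 966.4 against 304.4), did not pass. Neither did CREBBP, a histone acetyltransferase, with a log2 difference of 0.79, nor HNRNPF, a splicing regulator related to HNRNPH1. HNRNPF lay the other way, with means of 778.4 ± 135.3 in the tagged libraries and 1508.6 ± 607.5 in the controls (SD, n = 2 each), a log2 difference of -0.72. All calls of the 3 lists had limma adjusted p-values of 0.0374 or more, and none of these genes passed without tagged-CFAP20 replicate 1 or without replicate 2. When each library was scaled to the same window total, no gene passed, in the lists or in the whole table, where 1635 genes still had an unadjusted p under 0.05 (limma), and the median over all genes tested moved from 0.37 to 0.14. The list medians moved from 1.54 to 0.65 for the speckle list, from 1.10 to 0.27 for the helicases and from 1.10 to 0.36 for the partners. With a pseudocount of 10 and no such scaling the partner median was 2.03, against 2.10 over all genes tested.

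As a check of the labels, the 76.0% of the CFAP20 gene covered by a neighbouring window held no overlap in either control and 43 and 39 in the tagged libraries, 552.7 and 543.4 signal units. A count of 0 allows up to 3 reads, or 342 and 1142 signal units in CFAP20-KO replicates 1 and 2, so in replicate 2 that difference was not detectable at its depth. In replicate 1 the limit lies below the tagged values, but the signal summed over all genes was itself 2.17 times higher in the tagged libraries. The counts of 0 are thus a weak check of the labels. Of 27 markers looked up, those of RPE1 with a row and signal in all 4 libraries were COL1A1, CALD1 and FLNA. RPE65 was at 0 in both controls and at 51.4 and 27.9 in the tagged libraries. COL1A2, a collagen gene like COL1A1, and ALB, a liver marker, are listed at 0 throughout, and SNAP25, a neuronal marker, had 0 in the controls and 141 and 209 in the tagged libraries. The other markers have no row in these tables.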

How the data were processed

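Members and gene lists were chosen with earlier results of these data known. The authors deposited a normalized coverage signal per 200-base bin, for windows of 100 kb on each side of gene starts, in 1 table per library, without strand. Tables were matched to samples by the names they carry. Per the labels' protocols the reads were mapped to hg38. Bowtie2 2.3.5, UMI-tools 1.0.0 and HOMER 4.8.2 are named in the submitters' processing notes, with no roles given there, and the target of the normalization is not given in the sources used here. Per the file headers, 1 further column of other values belongs to none of these samples and was not used.

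Every value above 0 was a whole multiple (within 0.01) of a step per library (100%), which gave read overlaps. These come from coverage, so no count model was used. GENCODE 44 gave the features, and 9478 of 9667 genes were matched to a symbol by identifier. Bins of minus-strand windows were placed from right to left. Where the windows of 2 neighbouring genes on opposite strands cover the same stretch, their overlaps correlated at r = 0.953 to 0.998 across pairs of genes. Reads of the 3 stretches cannot be assigned to a strand, and 6 bins of SRRM2 overlap ELOB and 8 of DDX5 overlap CEP95.

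limma 3.58.1 (R 4.3.3, trend) was fitted to log2(signal + 276.88), the pseudocount being 1 overlap of the shallowest library, over genes above 0 in at least 2 libraries, with groups of 2 and no block. Differences on that scale understate the change of low genes. In data simulated at these depths the fit recovered changed genes and also called unchanged ones more often than its threshold allows, so its counts serve as a background. Named genes were the members, CFAP20, of each list the genes past the threshold and the 3 with most tagged signal, the 3 nearest genes, and the 5 highest bins. Intervals are 95% exact binomial ones on overlaps divided by bins per read. Tests over libraries were exact permutations. Alternatives changed the pseudocount, filter, scaling, window, exon rule, block and libraries.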

Additional observations from a re-analysis of the deposited data

Results flagged for a closer look

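The deposited end of DDX17 lies 5′ of the GENCODE end, and the stretch between them (chr22:38483438-38485877, 12 bins, 3′ untranslated region) was left out of the values above. Signal was present there too, in deposited units above its level in the controls. Per bin it was 27.7 and 46.1 in CFAP20-KO replicates 1 and 2, from 4 and 2 overlaps in all, and 58.9 and 52.2 in tagged-CFAP20 replicates 1 and 2, from 55 and 45. The tagged mean over the stretch was 666.97 ± 56.5 signal units and the control mean 442.9 ± 156.8 (SD, n = 2 each), a ratio of 1.51. That is below the ratio of 2.17 for the signal summed over all genes, so relative to that sum the stretch was lower in the tagged libraries. With 2 libraries in a group this difference has no test that could pass a threshold.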

How the results depend on the processing

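The log2 ratio of tagged to control signal of the 3 genes was above 0 under all 30 alternatives. Their selection for high tagged signal favoured that sign, so the count is no support. For SRRM2 the ratio moved by more than the replicate spread, from 1.99 to 0.91 (relative to summed gene signal) and 0.92 (relative to summed window signal). It moved likewise from 1.85 to 0.71 and 0.72 for DDX5 and from 1.19 to 0.0071 and 0.0213 for DDX17. Relative to summed gene signal the tagged values of DDX17 lay between its control values. For DDX17 the next window gave 0.88. Leaving out 1 library gave 1.60 to 2.52 for SRRM2, 1.62 to 2.05 for DDX5 and 1.07 to 1.33 for DDX17. The difference in exon share did not keep its direction. For SRRM2 it went from 4.02 to -23.8 percentage points (coding sequence) and -22.0 (canonical exons, chosen after seeing the data). For DDX5 it went from -1.09 to 12.3 (coding sequence) and 0.465 (next window). With any exon base the DDX5 difference was 0, fixed in advance because all 49 of its bins then count as exonic. For DDX17 it went from -5.95 to 1.67 (any exon base) and 0.437 (canonical exons). Without CFAP20-KO replicate 2 the SRRM2 difference was -1.43, and leaving out 1 library gave -1.43 to 9.46.

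The 1046 calls over all genes became 1681 with a pseudocount of 10, 89 without the filter and 0 at the same window total. The calls of the speckle, helicase and partner lists, 6, 4 and 1, were 6, 3 and 1 with a pseudocount of 10. They were 0, 0 and 0 without the filter and 0, 0 and 0 at the same window total. Leaving out 1 library gave 0 to 2496 calls over all genes, 0 to 13, 0 to 12 and 0 to 5 in the lists. The counts were 0 without tagged-CFAP20 replicate 1 or 2, where 33 and 51 genes had an unadjusted p under 0.05 (limma) and the lone tagged library is assumed to vary like the controls. They were highest without CFAP20-KO replicate 1 (2496) or 2 (2190). With the replicate number as a block there were 1694 calls over all genes and 9, 6 and 2 in the lists. Same-numbered libraries did not deviate together (r = -0.042 across 4461 genes). The controls held only 9146 and 3908 overlaps within all genes, so counting noise could hide a shared batch and none is excluded. Depth limits the controls most: 7 to 51 overlaps stand behind each of their values for the 3 genes. The causes of these changes were not tested.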
